A study of Mus musculus with 2 samples.

Results

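Keratinocytes carrying Sostdc1, Vsnl1, Rapgef5 and Cyp27a1 transcripts were examined in mouse back skin by droplet single-cell RNA-seq. They were defined by raw counts of unique molecular identifiers (UMIs, counted RNA molecules). A cell belonged to the group when Krt5 and Krt14 together gave at least 20 UMIs and the 4 genes Sostdc1, Vsnl1, Rapgef5 and Cyp27a1 together gave at least 3. It also had to pass 6 exclusions: Ly6a under 2 UMIs, Cd34 plus Krt24 under 3, Lgr5 plus Slc38a4 plus Abi3bp under 3, Krt79 plus Defb6 plus Cst6 under 20, Krt1 plus Krt10 under 100, and Col1a1 plus Col1a2 under 20. The rule found 617 cells among 7564 kept cells and 8809 deposited barcodes, with 365 in the control library and 252 in the induced library. These cells are called Sostdc1/Vsnl1 keratinocytes, although the rule asked for neither gene singly. The counts of the 4 genes chose the cells, so every value of those genes here is a description.

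The study asked how raised miR-205 changes telogen skin before hair growth becomes visible. Each group was 1 library from 1 mouse, so no comparison had a replicate check and no test was made. The induced mouse carried a miR-205 transgene under a tetracycline-responsive promoter together with Krt14-rtTA, which restricts induction to Krt14-expressing epithelium, and received doxycycline chow for 4 days from postnatal day 49. Both mice were labelled C57BL/6, were matched for gender, carried K14-H2BGFP (a nuclear green fluorescent reporter) and gave dissociated back skin at postnatal day 53. The transgene had been injected into FVB embryos, the control was a littermate, and both libraries were run on the same chip. The protocol states that both mice were fed doxycycline, whereas the sample label calls the control untreated. Cells were sorted by surface proteins and H2BGFP to set proportions of epidermal, follicular and dermal cells, so shares of all cells follow the sort.

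The control library held 55465594 UMIs over 4545 barcodes and the induced library 49733560 over 4264. Cells with above 200 and below 5000 genes and with mitochondrial UMIs under 10% were kept, giving 3936 and 3628, of which 3186 and 2682 reached the Krt5 plus Krt14 minimum and are called keratinocytes. The Sostdc1/Vsnl1 keratinocytes held 4649389 control and 3263139 induced UMIs, with a median of 12142 and 12265.5 UMIs per cell. Their median mitochondrial share was 5.36% and 5.06%. The libraries shared 11 barcodes, of which 1 belonged to a control cell of the group and 0 to an induced cell. No doublet caller was run, and candidate doublets were left out only in an alternative. Intervals are exact 95% Poisson or Clopper-Pearson intervals unless another kind is named, and cover counting error only, not differences between mice.

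Sostdc1 encodes a secreted antagonist that binds bone morphogenetic proteins (BMPs) and WNT co-receptors and is best known from the patterning of hair placodes and teeth. In the resting follicle, BMP signalling holds hair follicle stem cells (HF-SCs) quiescent and WNT signalling accompanies their activation. Vsnl1 encodes visinin-like 1, a calcium sensor of the neuronal calcium sensor family. Rapgef5 encodes an exchange factor that activates RAP GTPases, and Cyp27a1 encodes sterol 27-hydroxylase, a mitochondrial enzyme of cholesterol and vitamin D metabolism. By RefSeq on GRCm38.p6, Sostdc1 lies at chr12:36314169-36318452, Vsnl1 at chr12:11325257-11436578, Rapgef5 at chr12:117516526-117759737 and Cyp27a1 at chr1:74713148-74737897.

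MicroRNAs direct repression through bases 2 to 8, the seed, which pairs with matching sites mainly in 3′ untranslated regions (3′ UTRs). The mature miR-205-5p strand, at chr1:193507503-193507524 on the minus strand of GRCm38.p6, is shown with its seed in capitals, because it is the molecule that was raised.
mmu-miR-205-5p: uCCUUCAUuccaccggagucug

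The complement of the seed, ATGAAGG, was searched on the sense strand of the longest annotated 3′ UTR of each gene (GENCODE M1, build NCBIM37). It occurred in 871 of 7281 genes compared in these cells (11.96%). None of the 4 rule genes held it. It occurred in Dnm3, Cldn8 and Runx2, which were among the genes highest in these cells. Gsdma and Mgll, among the lowest, also held it, as did Actb and Rock2, which the study names as miR-205 targets. In all, 7 of the 68 named genes with a 3′ UTR held it. The sites of Dnm3, Cldn8, Runx2, Actb and Rock2 are shown with the match in capitals, so that target levels can be read against them. Each has 15 bases before and 3 after the match. They lie on NCBIM37 at chr1:163921325-163921349 (minus) for Dnm3, chr16:88562060-88562084 (minus) for Cldn8, chr17:44743766-44743790 (minus) for Runx2, chr5:143664893-143664917 (minus) for Actb and chr12:16995055-16995079 (plus) for Rock2.
Dnm3: tctttgtgagctatgATGAAGGaag
Cldn8: gtagtgaaggttaaaATGAAGGctt
Runx2: ttgttttcacgatgtATGAAGGaga
Actb: cccccaacttgatgtATGAAGGctt
Rock2: aaatacattgaagagATGAAGGcag
A match is a description of sequence and does not show that miR-205 acted on that transcript.

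Sostdc1 gave most of the rule-gene UMIs. In control cells of the group it had 1251 UMIs, or 269 CPM (counts scaled to a common total, here all UMIs of the group), and was detected in 79.2% of cells (74.6 to 83.2%), with a median of 2 UMIs and a highest cell of 46. In induced cells it had 821 UMIs, 252 CPM, and 78.6% of cells with a UMI (73.0 to 83.5%), with a median of 2 and a highest cell of 21. Sostdc1 alone reached 3 UMIs in 162 control and 114 induced cells.

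Rapgef5, the RAP exchange factor, had 415 and 271 UMIs, or 89.3 and 83.0 CPM, in 56.7% and 51.6% of control and induced cells. Vsnl1, the calcium sensor, had 261 and 200 UMIs, or 56.1 and 61.3 CPM, in 47.1% and 51.6% of cells. Cyp27a1, the sterol hydroxylase, had 151 and 134 UMIs, or 32.5 and 41.1 CPM, in 31.2% and 37.7% of cells. These 3 genes were shallow per cell, with at most 8, 10 and 4 UMIs of Vsnl1, Rapgef5 and Cyp27a1 in any cell of either library.

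The 4 genes rarely met in the same cell at this depth. UMIs of all 4 were seen in 22 control cells (6.03%) and 11 induced cells (4.37%), whereas 79 (21.6%) and 56 (22.2%) carried only 1 of them. Sostdc1 and Vsnl1 were detected together in 134 control cells (36.7%) and 103 induced cells (40.9%), so the pair that labels the group was not seen together in most of its cells. Sostdc1 gave the most UMIs of the 4 in 200 control (54.8%) and 133 induced cells (52.8%). Rapgef5 led in 78 (21.4%) and 43 (17.1%), Vsnl1 in 30 and 18, Cyp27a1 in 17 and 17, and the others were tied. The group therefore joined cells that reached the minimum by different genes.

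**Figure D1:**
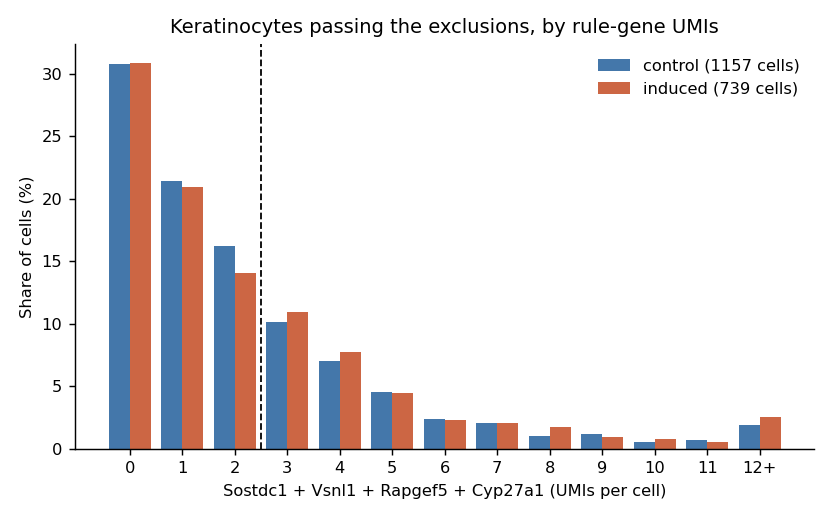
Share of the keratinocytes that passed the exclusions (vertical axis, percent of 1157 control or 739 induced cells) by the summed UMIs of the 4 rule genes per cell (horizontal axis, the last class pooling 12 or more). The dashed line is the minimum of 3 UMIs. Shares decline without a gap at the line, from 188 control cells at 2 UMIs to 117 at 3, and from 104 to 81 induced cells.

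The counts formed a continuous range, and the minimum of 3 UMIs did not fall in a gap. Control cells just outside it, with 2 rule-gene UMIs, held Sostdc1 at 55.0 CPM, and those just inside, with 3, held 111 CPM. The corresponding induced values were 58.4 and 104 CPM. Of 6 genes outside the rule, all 6 were higher just inside the minimum in control, but 5 were lower there in induced cells. Col8a1, a collagen gene, was higher inside in both, at 15.8 and 17.6 CPM in control and 12.5 and 14.3 in induced cells. Krt17, a follicle keratin, stood at 5607 CPM outside and 6287 inside in control, and at 7363 and 6271 in induced cells. Lgr6, a stem cell receptor of the upper follicle, stood at 40.1 and 48.9 in control, and at 50.1 and 48.0 in induced cells. Pthlh, a secreted hormone-related protein, stood at 98.7 and 101 in control, and at 235 and 139 in induced cells.

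Elsewhere in the skin each rule gene had its own distribution. The comparison groups were keratinocytes picked by the genes that the rule excluded: a bulge gate (Cd34 plus Krt24 at least 3 UMIs), a hair germ (HG) gate (Lgr5 plus Slc38a4 plus Abi3bp at least 3), an upper follicle gate (Krt79 plus Defb6 plus Cst6 at least 20) and a Ly6a gate (at least 2, mainly interfollicular epidermis by the known use of this marker). Sostdc1 was at 153 CPM in control and 225 in induced cells of the bulge gate, at 92.7 and 120 in the HG gate, at 67.6 and 41.5 in the upper follicle gate, and at 37.3 and 49.4 in the Ly6a gate. Keratinocytes that passed the same exclusions with 0 to 2 rule-gene UMIs held 23.0 and 22.3 CPM. Thus Sostdc1 was not confined to these cells, and the bulge gate came next to them in level.

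Cyp27a1 showed another order. It was at 41.5 and 40.1 CPM in the upper follicle gate, beside 32.5 and 41.1 in the Sostdc1/Vsnl1 keratinocytes, and at only 2.30 and 3.30 CPM in the bulge gate. Rapgef5 was at 43.2 and 47.5 CPM in the upper follicle gate and at 37.6 and 32.4 in the bulge gate. Vsnl1 stayed between 5.71 and 19.3 CPM in all 4 gates of both libraries. Cells with Krt5 plus Krt14 under 20 UMIs, mainly not keratinocytes, held 16.7 and 12.6 CPM of Sostdc1, but only 4 UMIs of Vsnl1 in each library (0.531 and 0.456 CPM).

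**Figure D2:**
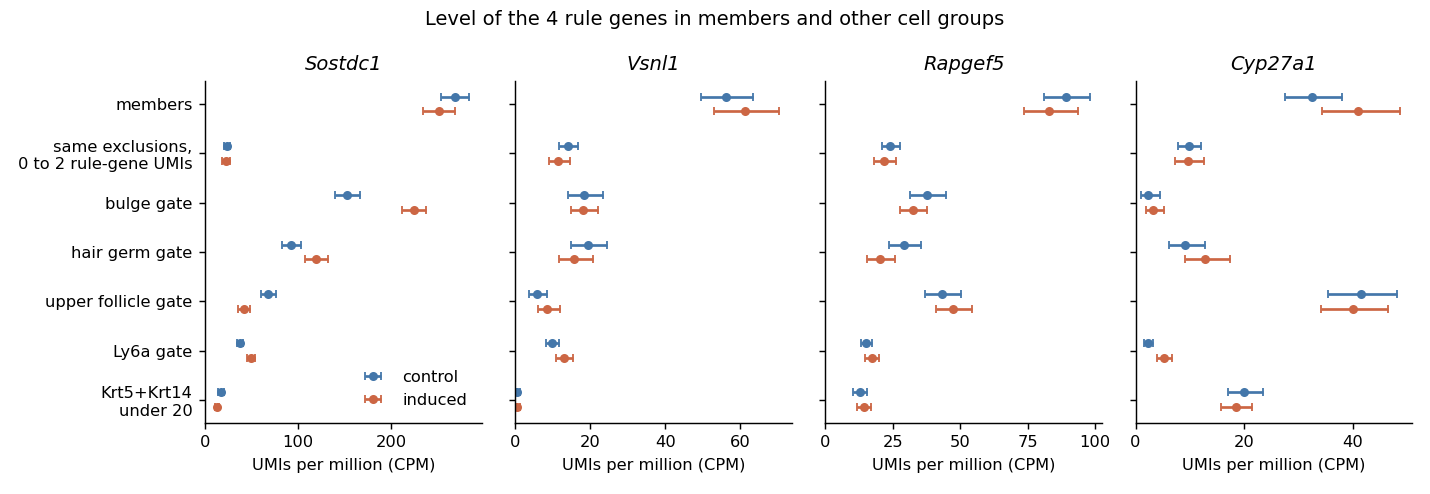
Level of each rule gene (horizontal axes, CPM, starting at 0) in Sostdc1/Vsnl1 keratinocytes (members, top row) and 6 other cell groups, control in blue and induced in orange, with exact 95% Poisson bars. The top row is high because these genes chose the cells. Among the other rows, Sostdc1 is highest in the bulge gate (153 and 225 CPM) and Cyp27a1 in the upper follicle gate (41.5 and 40.1 CPM).

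To compare detection at equal depth, each cell was thinned to 5000 UMIs. Within the group, 4 control cells and 6 induced cells were too shallow for this. Sostdc1 was then detected in 57.1% of control and 55.7% of induced cells of the group, in 33.7% and 38.8% of the bulge gate, and in 6.10% and 4.23% of cells with few Krt5 and Krt14 UMIs. Vsnl1 was detected in 26.3% and 24.0% of the group and in 0.190% and 0.292% of cells with few keratin UMIs, which gives its background in other cell types. Rapgef5 was detected in 33.0% and 28.5% of the group and 6.86% and 5.69% of those cells, and Cyp27a1 in 15.8% and 22.0% against 8.38% and 7.45%. Unthinned, the medians were 8237 and 7013 UMIs per cell in that last group, from which 225 and 261 cells were too shallow to be thinned.

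The rule genes were also compared between libraries without the 3-UMI minimum. Over all keratinocytes that passed the exclusions, the log2 ratio of induced over control CPM was -0.01 for Sostdc1 (-0.13 to 0.11), 0.06 for Vsnl1 (-0.17 to 0.29), -0.07 for Rapgef5 (-0.26 to 0.11) and 0.27 for Cyp27a1 (-0.01 to 0.56). All 4 intervals include 0. Over all keratinocytes, without the exclusions, the ratio was 0.38 (0.31 to 0.45) for Sostdc1, 0.11 (-0.043 to 0.27) for Vsnl1, 0.0057 (-0.11 to 0.12) for Rapgef5 and 0.18 (0.016 to 0.35) for Cyp27a1. Sostdc1 and Cyp27a1 were thus higher in the induced library beyond counting error there. By gate, Sostdc1 was at 0.55 (0.41 to 0.70) in the bulge gate, 0.37 (0.15 to 0.59) in the HG gate, 0.41 (0.23 to 0.58) in the Ly6a gate and -0.70 (-0.99 to -0.42) in the upper follicle gate. The differences between these cell groups were not tested.

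The group made up 11.5% of control keratinocytes (10.4 to 12.6%) and 9.40% of induced keratinocytes (8.32 to 10.6%), a difference of -2.06 percentage points (Newcombe interval -3.62 to -0.487). The sign depended on the cell filter. With cells kept only under 5% mitochondrial UMIs, 134 control and 120 induced cells remained and the difference was 1.04 points. Among keratinocytes that passed the exclusions, the group took 31.5% in control (28.9 to 34.3%) and 34.1% in induced (30.7 to 37.6%), a difference of 2.55 points (-1.75 to 6.91). The denominators moved as well, since the bulge gate took 10.1 points more of induced than of control keratinocytes (8.24 to 12.1), and the sort set the mix of cells.

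The group was next read for markers of known skin compartments. By the rule, Cd34 was nearly absent, at 5.16 and 11.3 CPM. Krt15, an outer bulge keratin outside the rule, was at 2838 control and 3294 induced CPM, against 9891 in the control bulge gate, and Sox9, an HF-SC transcription factor, was at 614 and 685 CPM against 1032. Krt5 and Krt14 stood at 3829 and 7973 control CPM and at 3817 and 6592 induced CPM. Krt1, of suprabasal epidermis, was limited by the rule and had 11 and 54 UMIs.

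Of the genes compared with all other keratinocytes, 84 of 10740 (0.782%) were at least 2-fold higher in the group in both libraries and 379 (3.53%) at least 2-fold lower. The upper follicle and isthmus list had 2 of 9 genes above that limit, Lrig1 and Gata6, and 3 below it, Krt79, Defb6 and Cst6, which the rule excludes. Its medians were 0.59 and 0.51 on the log2 scale. Lrig1, an ERBB-restraining receptor of junctional zone stem cells, was at 34.0 CPM in control cells of the group against 16.5 in other keratinocytes, and at 36.8 against 18.0 in the induced library. Gata6, a transcription factor of the sebaceous duct and junctional zone, was at 44.5 against 21.7 and at 60.7 against 28.4. Lgr6 was higher by 0.76 and 1.21, and Krt17 by 0.59 and 0.62. Against cells that passed the same exclusions, only 1 of the 9 genes, Lrig1, was at least 2-fold higher in both libraries. Gata6 was not, and the medians of the list were 0.17 and 0.34 there. After thinning, Lrig1 was detected in 14.4% and 17.1% of the group, 4.29% and 4.27% of the bulge gate and 13.1% and 11.2% of cells with few keratin UMIs, so its share in the group was near that in other cell types.

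The bulge, HG and inner bulge lists had no gene at least 2-fold higher in both libraries and 2 of 8, 3 of 6 and 2 of 4 at least 2-fold lower. The same held for the basal epidermis (3 of 6 lower), suprabasal (3 of 5) and sebaceous lists (3 of 7). Among 15 keratins tested, 0 were higher and 8 were lower. Krt7 came nearest, at 8.60 and 6.13 CPM against 3.33 and 3.78. These comparisons use the same cells from which the rule drew the group, and several list genes are part of the rule, so they describe it without testing it.

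The genes highest in the group against other keratinocytes, ranked by the lower of the values in both libraries, included genes of matrix proteins and secreted factors. Col4a4, a basement membrane collagen chain, had 36 UMIs in each library and was higher by a log2 of 2.10 and 2.12. Col8a1, a chain of the short network-forming type VIII collagen, had 78 and 47 UMIs, was detected in 14.8% and 14.7% of cells, and was higher by 2.10 and 1.99. Aspn, a small leucine-rich proteoglycan that binds TGF-beta, had 228 and 235 UMIs and was higher by 1.97 and 1.63. For these 3 genes the intervals of the control and induced ratios overlapped. Col4a4 was concentrated, with 58.3% and 47.2% of its UMIs in 5 cells.

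Among secreted signals, Pthlh, the parathyroid hormone-related protein, was at 92.9 and 170 CPM against 23.2 and 54.4 in other keratinocytes, or 2.00 and 1.64 higher. Over the bulge gate Pthlh was only 0.52 and 0.45 higher. Tgfb2, a TGF-beta ligand of follicle regression, was at 49.9 and 68.6 against 16.2 and 21.5, or 1.62 and 1.68. Robo2, a receptor for Slit guidance proteins, was higher by 1.66 and 1.64. Kazald1, a secreted protein related to insulin-like growth factor binding proteins, was higher by 1.73 and 1.33. Serpina3g, an intracellular serpin, was higher by 1.82 and 1.71.

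Runx2, a transcription factor best known from bone, was at 23.7 and 24.8 CPM against 9.35 and 8.88, or 1.34 and 1.49 higher. Its excess was largest over the bulge gate, at 5.05 and 4.18, and against the upper follicle gate it was 0.20 and 0.12. Aldh3a1, an aldehyde dehydrogenase, was detected in 67.9% and 71.0% of cells, the widest of these genes, at 169 and 235 CPM, and was 1.30 and 1.44 higher. The others were Ank, a pyrophosphate transporter (1.60 and 1.52), Dnm3, a dynamin (1.63 and 1.48), and Cldn8, a tight junction claudin (1.87 and 1.47). Ank was only 0.14 and 0.50 higher than in the bulge gate, and 0.68 and 0.32 higher than in cells that passed the same exclusions. Cd207 and Rgs1 also ranked here, but 97.6% and 97.4% of the Cd207 UMIs lay in 5 cells of each library and all Rgs1 UMIs in 4.

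Against the pooled other keratinocytes, several genes were lowest in the group. Gsdma, a gasdermin, Dio2, the thyroid hormone activating deiodinase, and Bglap3 had 0 UMIs in both libraries. Against a floor of 3 UMIs per library, Gsdma was at least 7.19-fold lower in control and at least 6.76-fold lower in induced cells than in other keratinocytes, Dio2 at least 7.39-fold and 5.19-fold lower, and Bglap3 at least 5.09-fold and 3.72-fold lower. Bmp3, a BMP family member, had 3 control UMIs, a log2 ratio of -4.93 (-7.43 to -3.60), and 0 induced UMIs, at least 21.6-fold lower. Gdpd2 likewise had 3 UMIs, -4.68 (-7.18 to -3.35), and 0, at least 17.7-fold lower, and Sox6, a transcription factor, had 5 and 0, the latter at least 21.0-fold lower. Igfbp3, an insulin-like growth factor binding protein, was at 25.6 and 14.1 CPM against 618 and 384, or -4.59 and -4.75 on the log2 scale. The remaining lowest genes were Mmp3 (1 and 3 UMIs), Gna14 (1 and 0) and Mt4 (1 and 3).

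Several of these genes were as sparse in other follicle gates and had most of their UMIs in the Ly6a gate. Bmp3 had 2 control and 4 induced UMIs in the bulge gate and 2 and 0 in the upper follicle gate, but 693 and 508 in the Ly6a gate. Sox6 had 2 and 0 UMIs in the upper follicle gate and 857 and 534 in the Ly6a gate, and Dio2 had 0 in the bulge gate of both libraries and 155 and 123 in the Ly6a gate. Igfbp3 was lower in the upper follicle gate than in the group, at 7.20 and 11.2 CPM. Gsdma instead had 88 and 105 of its 178 and 207 UMIs among other keratinocytes in the upper follicle gate.

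**Figure D3:**
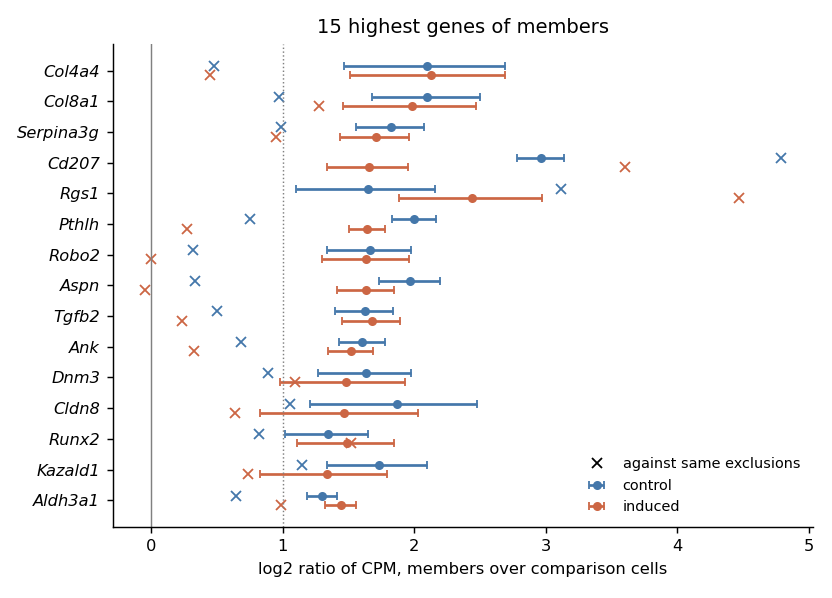
Log2 ratio of CPM (horizontal axis) of the 15 genes highest in Sostdc1/Vsnl1 keratinocytes (members) against all other keratinocytes, as points with exact 95% bars, control in blue and induced in orange. Crosses give the ratio against keratinocytes that passed the same exclusions with 0 to 2 rule-gene UMIs, the dotted line 2-fold. For Aspn the crosses lie at 0.33 and -0.05 where the points lie at 1.97 and 1.63.

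Much of this profile was shared with cells that merely passed the same exclusions. Against those cells, 19 of 8219 genes (0.231%) were at least 2-fold higher in both libraries and 62 (0.754%) at least 2-fold lower. Aspn was then only 0.33 and -0.05 higher, Robo2 0.32 and -0.01, Pthlh 0.75 and 0.27, and Tgfb2 0.50 and 0.24. Runx2 kept 0.82 and 1.52, Col8a1 0.97 and 1.27, and Serpina3g 0.98 and 0.95. Cells without 3 rule-gene UMIs that passed the exclusions thus had Aspn and Robo2 near the level of the group, while Runx2 and Col8a1 were higher in the group.

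Lrig1 was 1.05 and 1.04 higher than in cells that passed the same exclusions, at 34.0 and 36.8 against 16.4 and 17.8 CPM. Ackr4, an atypical chemokine receptor, was 1.20 and 1.31 higher and was detected in 73 control and 59 induced cells. Itih5, a hyaluronan-associated protein, was 1.04 and 1.29 higher, and Pdlim4, an actin-linked PDZ-LIM protein, 1.19 and 1.03. Adgrl3, an adhesion receptor of the latrophilin family, was 0.85 and 1.37 higher, in 38.1% and 29.8% of cells. Socs3, a feedback inhibitor of cytokine signalling, was 1.12 and 0.88 higher. Pclaf and Lig1, which act in DNA replication, were 0.97 and 1.23 and 1.00 and 0.97 higher, but 64.5% of the induced Pclaf UMIs lay in 5 cells. Il24, a cytokine, was 0.98 and 1.24 higher, with 75.7% and 84.6% of its UMIs in 5 cells. Not all of these genes were higher than in the other follicle gates. Against the upper follicle gate, Lrig1 was at 0.25 and -0.16, Pdlim4 at 0.31 and 0.09, Adgrl3 at -0.01 and 0.08 and Il24 at 0.36 and -0.31. Ackr4, Itih5, Socs3, Lig1 and Pclaf stayed at 0.75 or more there. Against the bulge gate, however, Socs3 was at 0.62 and -0.11 and Ackr4 at only 0.25 and 0.38.

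The lowest genes against the same exclusions again began with Igfbp3, at -3.78 and -4.05. Sncg, a synuclein, had 5 and 6 UMIs in the group and ratios of -3.61 and -3.86. Ndufa4l2, an oxygen-sensitive mitochondrial protein, was at 14.6 and 15.6 CPM against 98.8 and 160, or -2.75 and -3.34. Krt75, the companion layer keratin, was at -2.55 and -4.05 and Chit1, a chitinase, at -1.93 and -2.81. Tslp, an epithelial cytokine, was at -2.09 and -1.68, Mgll at -2.28 and -1.63, Ccdc71l at -1.49 and -1.78, and Ggct at -1.48 and -1.48. Krt1 was at -3.15 and -1.47. Igfbp3, Epgn (-1.27 and -1.82) and Krt1 are on the epidermal lists, and the remaining epidermal genes did not all share their direction, with Krtdap 0.45 and 0.25 higher.

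Antigen-presenting genes led the same comparison by size. Cd207 (langerin, of Langerhans cells) was 4.79 and 3.60 higher, H2-Eb1 2.23 and 2.85, Cd74 1.99 and 2.29, H2-Ab1 1.68 and 2.86, and H2-Aa 1.36 and 2.56. These UMIs came from few cells, since 5 cells held 92.0% of the control and 91.9% of the induced UMIs of the antigen-presenting list, with 1744 and 1050 in the highest cell. At least 2 such UMIs were found in 28 control cells (7.67%) and 23 induced cells (9.13%), against 9.07% and 10.6% of other keratinocytes. The group therefore held no larger share of such cells than all other keratinocytes. The share among cells that passed the same exclusions was not compared. There the list stood at 101 and 68.2 CPM, against 427 and 389 in the group.

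RNA of other cell types was sparse. T cell markers gave 2 and 6 UMIs in the whole group, with Cd3g, Trac and Nkg7 at 0 in control and Cd3e and Nkg7 at 0 in induced cells. Melanocyte markers gave 2 and 6 UMIs, endothelial markers 5 and 15, Merkel cell markers 4 and 10 with Krt20 and Atoh1 at 0 in both, and dermal papilla markers 12 and 5 with Corin at 0 in both. Fibroblast markers, among which the rule limits Col1a1 and Col1a2, gave 116 and 61 UMIs with Pdgfra at 0 in both libraries. Smooth muscle markers gave 27 and 228 UMIs, of which 219 lay in a single induced cell.

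Within the group, cells with the most Sostdc1 differed widely from the rest. Cells were split by Sostdc1 UMIs at values chosen after the counts had been seen, so this is a description: 76 control and 54 induced cells had 0, 127 and 84 had 1 to 2, 121 and 87 had 3 to 7, and 41 and 27 had 8 or more. The classes were of similar depth in control, with medians of 12287, 12050, 11883 and 12344 UMIs per cell, and the highest class was shallower in the induced library, at 9790 against 12651.5 in the lowest. Cells with 0 Sostdc1 UMIs had to reach 3 by the other genes, which places Rapgef5 and Cyp27a1 there by construction. The classes therefore also differ in the rule gene that brought cells in. In Rapgef5-led cells Krt6a was at 979 control and 1627 induced CPM, against 313 and 179 in Sostdc1-led cells. Plet1 was at 2639 and 5128 against 1643 and 1872, and Krt17 at 6524 and 9852 against 3970 and 3576. How much of the orders below follows from this was not tested.

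Fos and Egr1, immediate early transcription factors, were higher in each class with more Sostdc1 in both libraries. Fos was at 138, 438, 1095 and 4748 CPM across the 4 control classes and at 172, 427, 1768 and 3874 across the induced classes. Egr1 was at 220, 309, 690 and 1645 in control and at 134, 260, 892 and 1194 in induced cells. Fosb was at 1113 and 1049 CPM in the highest class against 357 and 372 in cells with fewer than 8 Sostdc1 UMIs. These genes respond to tissue dissociation, and the heat shock gene Hspa1a also stood at 1765 CPM in the highest control class against 106 in the lowest, but at 304 against 258 in the induced library. Whether handling of the cells played a part was not tested.

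Hes1, a NOTCH target and repressor, was the gene with the largest excess by the rank used, at 159 and 122 CPM in cells with 8 or more Sostdc1 UMIs against 24.3 and 23.6 in the rest, or log2 values of 2.71 (2.28 to 3.15) and 2.38 (1.75 to 2.96). Socs3 was 1.61 and 1.80 higher, Txnip, a regulator of redox state and glucose uptake, 1.71 and 1.74, and Pik3r1, a regulatory subunit of PI 3-kinase, 1.49 and 2.66. Alad, an enzyme of haem synthesis, was 1.75 and 1.42 higher and Capns2, a calpain subunit, 1.35 and 1.61. Stmn1, a microtubule regulator, was 1.24 and 1.39 higher. Boc, a Hedgehog co-receptor, was 1.24 and 1.24 higher, and Bcl11b, an epidermal transcription factor, 1.18 and 1.39. Mki67, a proliferation marker, was at 98.4 and 59.4 CPM in the highest class against 11.3 and 2.76 in the lowest.

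Other genes were lowest where Sostdc1 was highest. F3, tissue factor, was at 13.3 and 19.8 CPM in the highest class against 213 and 373 in the rest, or -3.91 (-5.33 to -2.96) and -4.12 (-5.68 to -3.11). Krt6a, an inner bulge and companion layer keratin, was at 56.8 and 129 against 526 and 561, or -3.19 and -2.11. Cald1 and Tpm1, which bind actin filaments, were at -3.39 and -1.84 and at -1.50 and -1.59. Plet1, of the follicle isthmus, was at 835 and 587 against 2257 and 3206, or -1.43 and -2.44. Krtdap and Dmkn, of differentiating epidermis, were at -2.81 and -1.88 and at -1.45 and -1.40, and Eppk1, a plakin, at -1.44 and -1.38. Mtmr10 (-2.26 and -3.24), Nipal1 (-1.57 and -2.02), Trim16 (-1.51 and -2.20) and Riok2 (-1.61 and -1.48) completed the lowest genes. Krt17 was at 7512, 4585, 4123 and 2690 CPM across the control classes and at 7642, 5630, 3240 and 3171 across the induced ones. Krt15 was at 2653 in the lowest and 3612 in the highest control class and at 2337 and 6055 in the induced classes.

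**Figure D4:**
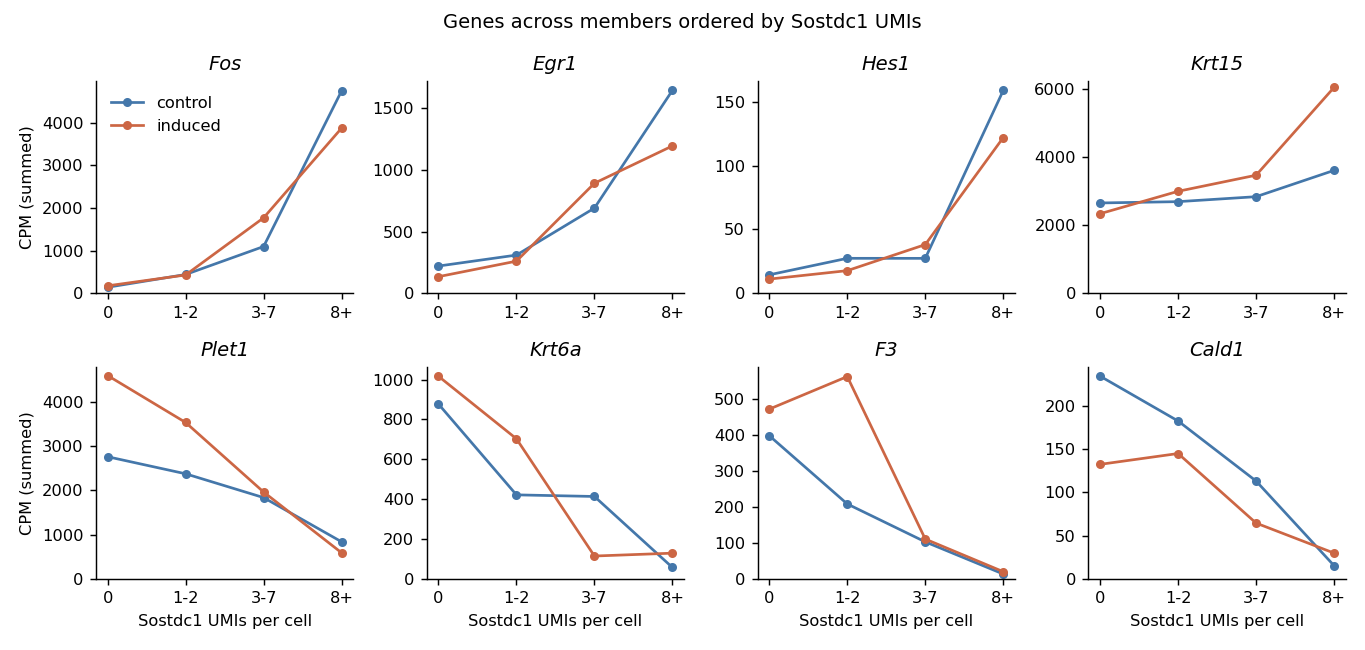
Summed level (vertical axes, CPM, starting at 0) of 8 genes in Sostdc1/Vsnl1 keratinocytes (members) split by Sostdc1 UMIs per cell (horizontal axes, 0, 1 to 2, 3 to 7, and 8 or more), control in blue and induced in orange, with 1 library a point. Fos, Egr1 and Hes1 are highest in cells with 8 or more Sostdc1 UMIs (Fos at 4748 and 3874 CPM), whereas Plet1, Krt6a, F3 and Cald1 are lowest there or close to it (F3 at 13.3 and 19.8 CPM).

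The same split of the bulge gate gave some of these orders and not others. Fos there was at 1234 CPM in control cells with 0 Sostdc1 UMIs and 8721 in the 9 cells with 8 or more, and at 925 and 6421 in the induced library, where the highest class had 44 cells. Tpm1 was at 1641 and 446 in control and at 1183 and 413 in induced cells. Krt6a showed no such order, at 3081 and 3114 in control and at 2510 and 1871 in induced cells, and F3 was at 157 and 43.5 in control but at 83.2 and 155 in induced cells. Mki67 was at 6.04 and 0 CPM in control and at 12.2 and 2.10 in induced cells. The bulge gate was not picked by the 4-gene sum, and its highest control class was small.

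Cycling cells formed part of the group. After thinning, Mki67 was detected in 23 of 361 control cells (6.37%, 4.08 to 9.41%) and 8 of 246 induced cells (3.25%, 1.41 to 6.31%), against 0.286% and 0.356% of the bulge gate. Other keratinocytes held like shares, with 4.16% and 4.17% of cells that passed the same exclusions, 4.63% and 7.59% of the HG gate and 5.65% and 5.06% of the Ly6a gate. Unthinned shares were 8.22% and 7.94%. The share in cells with few keratin UMIs was 4.57% and 2.48%, so other skin cells also carried Mki67. Top2a, a replication topoisomerase, was detected in 10.8% and 8.54% of thinned cells of the group. The 6 cycling genes were all lower in the induced library in summed CPM, where 52.3% of all genes compared were lower, with a median log2 ratio of -0.71, Mki67 at 37.6 and 19.3 CPM and Top2a at 81.5 and 44.7. The intervals of the thinned Mki67 shares overlapped.

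Sostdc1 belongs to the antagonists of BMP and WNT, and 11 genes of that list of 22 could be compared with other keratinocytes. Sostdc1 was high by selection, and Fst and Wif1 were also at least 2-fold higher in both libraries. Fst, which binds activins and BMPs, was at 4036 and 3480 CPM against 1765 and 1500, or 1.19 and 1.21 higher. Wif1, a WNT inhibitor, was at 15.3 and 29.7 against 7.66 and 9.15, or 1.00 and 1.70. Neither passed 2-fold against cells that passed the same exclusions, where Fst was at 0.39 and 0.41 and Wif1 at 0.56 and 0.64. Sfrp1, a secreted WNT inhibitor, was the list's lower gene, at -2.71 and -2.22. Grem1 was at -0.05 and 0.50, Nog at 0.29 and -0.19 and Dkk3 at -0.55 and -1.03. Sost, Dkk1 and Chrd had 0 UMIs in both libraries, which at a floor of 3 UMIs allows up to 0.645 CPM in control and 0.919 in induced cells.

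BMP ligands, receptors and targets lay near other keratinocytes, with 0 of 18 at least 2-fold higher, 2 lower and medians of 0.14 and 0.04. Bmp7 was at 40.9 and 47.2 CPM against 26.8 and 26.7. Bmp2, a ligand high in the bulge gate at 173 control CPM, was at 32.5 and 31.0 against 73.2 and 94.1, and Bmp4 was low, with 19 and 13 UMIs. Of the targets, Id1 was at 195 and 238 against 161 and 222, and Id3 at 547 and 709 against 457 and 580. The receptor Bmpr1a, at 53.3 and 50.9 against 48.6 and 48.5, hardly differed from other keratinocytes.

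Among 29 WNT ligands, receptors and targets 0 were at least 2-fold higher and 4 lower, with medians of 0.10 and 0.07. Wnt10a, an epithelial WNT ligand, was at 113 and 120 CPM against 72.3 and 68.2, and Fzd7, a receptor, at 26.5 and 27.6 against 11.7 and 15.9. Wnt3 was lower than in other keratinocytes in both libraries, at -1.31 and -3.14. The targets Axin2 (27 and 23 UMIs) and Lef1 (2 and 1) were sparse.

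The relatives of the other rule genes were described in the same way. The rule genes themselves, which were high by selection, are counted in the list sizes and medians given here. Of the neuronal calcium sensors, Hpcal1 was at -0.11 and -0.17 and Ncs1 at 0.45 and 0.24 against other keratinocytes, and Hpca, Hpcal4, Rcvrn and Kcnip1 had 0 UMIs. In the RAP module of 19 genes, 0 besides Rapgef5 were at least 2-fold higher and 0 lower, with Rapgef1 at 0.08 and -0.02, Rapgef6 at -0.01 and 0.18 and Rap1a, a RAP GTPase, at 0.08 and 0.10. Rap2b was at -1.03 and -0.89. In sterol and vitamin D metabolism, of 22 genes, 0 besides Cyp27a1 were at least 2-fold higher and 4 were lower, with medians of -0.43 and -0.22. Fdx1, which feeds electrons to Cyp27a1, was at 0.13 and 0.30, the vitamin D receptor Vdr at 0.34 and 0.46, and the cholesterol synthesis genes Idi1 and Cyp51 at -1.47 and -1.54 and at -1.38 and -1.48. Cyp24a1 had 0 UMIs.

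Other fixed lists showed small differences from other keratinocytes. Of 27 epithelial transcription factors, Gata6 was higher and Gata3 and Grhl3 were lower by at least 2-fold in both libraries, with Barx2 at 0.80 and 0.54, Trp63 at 0.48 and 0.17 and Lhx2 at -0.79 and -0.60. None of 21 basement membrane and hemidesmosome genes passed 2-fold in either direction. In the list of Merkel touch dome and Hedgehog genes, 7 were compared, and Hhip, a Hedgehog-binding inhibitor, was 2.66 and 1.61 higher, with 29 and 31 UMIs, whereas Ptch1 was at 0.00 and -0.09 and Gli1 at -0.25 and 0.21. Dissociation stress genes had medians of 0.21 and -0.11. Actin genes, 63 in number, had medians of -0.14 and -0.13, with 0 at least 2-fold higher and 1 lower.

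In the induced library, 83 of 8065 genes (1.03%) were at least 2-fold higher than in control cells of the group and 92 (1.14%) at least 2-fold lower, with a median log2 ratio of -0.01 over all genes. With 1 library a group these are differences between libraries. Gm8797, a predicted gene, had the highest ratio among the named genes, from 97 to 1685 UMIs and from 22.7% to 98.0% of cells, a log2 ratio of 4.62 (4.33 to 4.94). Its ratio was 4.38 to 4.71 in the 4 gates and in cells that passed the same exclusions, and 4.65 in cells with few Krt5 and Krt14 UMIs. Gm10093 (170 and 1 UMIs, -6.32, -12.2 to -4.40) and Gm7324 (146 and 20, -2.33) were at -1.71 or lower in every other cell group as well. Such predicted genes may share reads with near-identical copies, so their counts are uncertain.

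Ifi27l2a and Bst2, both interferon-responsive, were among the highest genes. Ifi27l2a had 80 control and 347 induced UMIs, in 10.4% and 29.0% of cells, or 2.62 (2.27 to 3.00), and Bst2 had 35 and 87, or 1.81 (1.24 to 2.43). In control and induced cells, 5 cells held 37.5% and 31.7% of the Ifi27l2a UMIs and 31.4% and 44.8% of the Bst2 UMIs. Ifi27l2a was 0.02 and Bst2 0.09 in the bulge gate, and in the upper follicle gate they were 5.16 and 2.13. Both were also higher in cells with few keratin UMIs, by 3.29 and 1.14.

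Grem1, a secreted BMP antagonist like Sostdc1, had 107 control and 285 induced UMIs, in 14.2% and 22.6% of cells, or 1.92 (1.60 to 2.26). Of these UMIs, 32.7% in control and 46.3% in induced cells lay in 5 cells. The Grem1 ratio was 1.71 in cells that passed the same exclusions, 0.55 in the bulge gate and 3.83 in the Ly6a gate. Ntf3, a neurotrophin, had 42 and 78 UMIs (1.40), and Avpr1a, a vasopressin receptor, 44 and 100 (1.69). Tsc22d3, a glucocorticoid-induced gene, had 37 and 72 (1.46), Ppp2cb, a phosphatase catalytic subunit, 57 and 105 (1.39), and Txnip 197 and 342 (1.31). Krt77, a keratin of epidermis and sweat ducts, had 66 and 143 (1.62). Several of these ratios were under 2-fold under other choices of cells. Krt77 was at 0.59 with a marker sum of at least 5, and under 5% mitochondrial UMIs Tsc22d3 was at 0.60, Txnip at 0.82 and Avpr1a at 0.91. Avpr1a was carried by 21 and 22 cells, and its ratio was 0.60 when Sostdc1 was left out of the rule. Ppp2cb was higher by 1.31 to 1.87 in all other cell groups, including cells with few keratin UMIs.

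Eva1a, a membrane protein linked to autophagy, was the lowest gene other than Gm10093. It had 811 control and 56 induced UMIs and was detected in 59.7% and 17.9% of cells, or -3.33 (-3.76 to -2.95). The ratio was -2.59 in cells that passed the same exclusions, -1.53 in the bulge gate and -3.73 in the upper follicle gate, so it was lower in each keratinocyte group, and it was -1.19 in cells with few keratin UMIs. Myadm, a membrane protein of lipid rafts, had 676 and 101 UMIs, in 63.3% and 28.2% of cells, or -2.23 (-2.55 to -1.93), and was -1.77 to -2.34 in the other keratinocyte groups and 0.29 in cells with few keratin UMIs. The 3′ UTR of Myadm, like that of Wnt3, held no ATGAAGG, and Eva1a had no 3′ UTR in the annotation used.

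Wnt3 had 88 control and 12 induced UMIs, or -2.31 (-3.37 to -1.49), but only -0.46 when the rule was applied to thinned cells and -0.72 in cells that passed the same exclusions, so the size of its difference depended on how cells were chosen. Thy1, a surface glycoprotein, had 189 and 42 UMIs (-1.65), Rab32, a GTPase of lysosome-related organelles, 181 and 45 (-1.49), L3mbtl3, a chromatin reader, 83 and 17 (-1.74), and 2310007B03Rik 142 and 34 (-1.54, but -0.81 under 5% mitochondrial UMIs). Trp53i11 had 356 and 80 UMIs, in 50.1% and 24.2% of cells, or -1.64 (-2.01 to -1.29), whereas in the bulge gate it was 0.72. Large ratios that rested on 5 cells were left out of this ranking, among them Slpi (17 and 165 UMIs), Ccl22 (269 and 0, all in 2 control cells) and Acta2 (11 and 167).

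**Figure D5:**
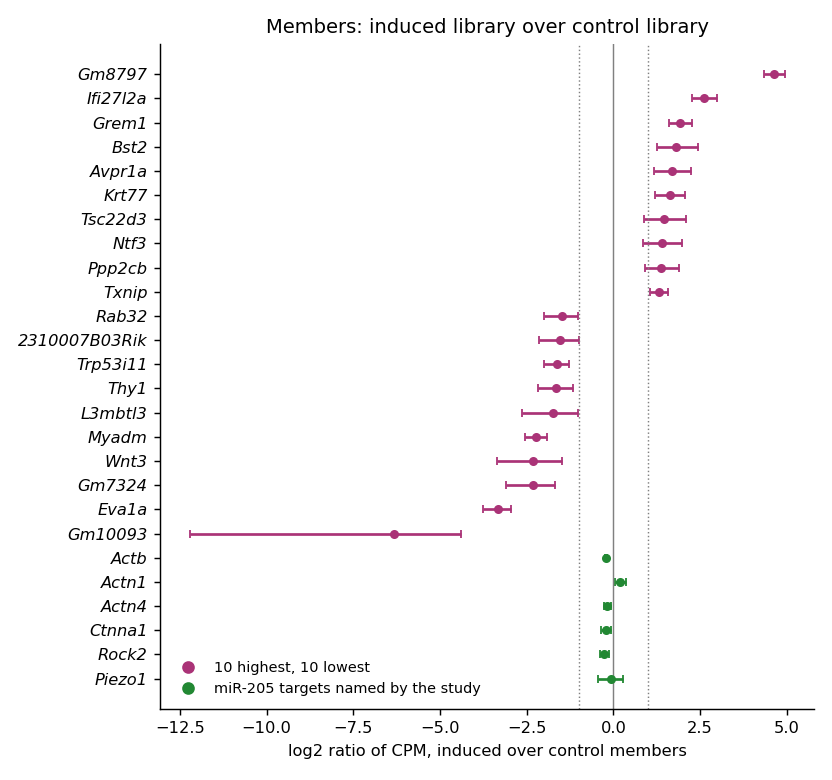
Log2 ratio of CPM (horizontal axis), induced over control Sostdc1/Vsnl1 keratinocytes (members), with exact 95% Poisson bars, for the 10 highest and 10 lowest genes (purple) and the 6 miR-205 targets the study names (green). Dotted lines mark 2-fold. Gm8797 lies at 4.62 and Gm10093 at -6.32, while the 6 targets lie between -0.26 and 0.20.

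The study named Actb, Actn1, Actn4, Ctnna1, Rock2 and Piezo1, which act in the actin cytoskeleton, at adherens junctions and in force sensing, as miR-205 targets. In the group 5 of 6 had a log2 ratio below 0, against 52.3% of all genes tested, and 0 passed 2-fold. Rock2, a kinase that drives actomyosin contraction, had 1413 and 828 UMIs, or -0.26 (-0.39 to -0.14). Actb, cytoplasmic actin, had 25925 and 15565, or -0.23 (-0.25 to -0.20). Ctnna1, the alpha-catenin of junctions, had 1013 and 616 (-0.21, -0.35 to -0.06), and Actn4, an actin crosslinker, 1667 and 1039 (-0.17, -0.28 to -0.06). Piezo1, a mechanosensitive channel, had 166 and 110 (-0.08, -0.44 to 0.27). Actn1 was higher, with 710 and 571 UMIs and 0.20 (0.03 to 0.36). Actb and Rock2 hold the seed match printed above, Ctnna1, Actn4 and Actn1 hold none, and Piezo1 had no 3′ UTR in the annotation used. The study identified these targets by ligating miR-205 directly to its mRNA sites, and it reports a conserved Piezo1 site in the 3′ UTR. It also reports all 6 as down-regulated by bulk RNA-seq of induced HF-SCs. From the single-cell data it reports miR-205 targets and a score of actin genes as lower in HF-SCs and HGs. The list was thus known to fall, so its count here is not an independent check. The seed search read only exact matches in the longest annotated 3′ UTR, so a gene without a match may still hold a bound site. The median of the 6 was -0.19, and it became -0.056 when the rule was applied to thinned cells.

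Of 58 actin cytoskeleton genes, 43 were below 0 (74.1%, against 52.3% of all genes), with a median of -0.15 and 0 past 2-fold. Zyx, a focal adhesion protein, was at -0.54 and Vcl, vinculin, at -0.40, while Rhob, an immediate early GTPase, was at 0.34 and Tmsb10 at 0.26. The study's targets other than Piezo1 are part of this list. Medians of the target and actin lists were -0.14 and -0.11 in cells that passed the same exclusions, -0.29 and -0.24 in the HG gate, and 0.0032 and 0.088 in cells with few keratin UMIs.

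Genes with the 7-base seed match in their 3′ UTR lay close to genes without it. The 871 genes holding ATGAAGG had a median log2 ratio of -0.02 with 53.7% below 0, against -0.01 and 52.4% for the 6410 genes without it. Among 299 genes with the match followed by A, the median was -0.05 and 57.9% were below 0. The 3′ UTRs with a match were longer, with a median of 2507 bases against 1060. Of the genes printed above, Dnm3 was at -0.39, Cldn8 at 0.47 and Runx2 at 0.07.

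Lists of the rule genes' pathways are given beside the 52.3% of all genes that were below 0. BMP and WNT antagonists had a median of -0.07 over 10 genes, with Grem1 (1.92) and Sfrp1 (24 and 50 UMIs, 1.55) past 2-fold and Fst at -0.21 (-0.25 to -0.18). BMP ligands, receptors and targets had a median of 0.21 over 15 genes, with 9 above 0, Id3 at 0.37 (0.29 to 0.46) and Id2 at -0.45 (-0.70 to -0.21). WNT genes had a median of 0.13, with 16 of 21 above 0, among them Wnt7b at 0.93, Fzd1 at 0.93 and Wnt4 at 0.76, and only Wnt3 past 2-fold. Of 15 RAP module genes 13 were below 0 (86.7%), with a median of -0.14, close to that of the actin list, and 0 past 2-fold. The neuronal calcium sensor genes (3 tested) and sterol genes (18) had medians of 0.13 and 0.11, with Ch25h, cholesterol 25-hydroxylase, at -0.92 (-1.09 to -0.76). The antagonist, RAP, calcium sensor and sterol summaries include the rule genes, whose counts chose the cells. Sostdc1 was at -0.10, Rapgef5 at -0.10 and Cyp27a1 at 0.34. The calcium sensor median is the ratio of Vsnl1 itself (0.13).

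Among the remaining lists, with 52.3% of all genes below 0, upper follicle genes had 8 of 9 above 0 with a median of 0.22, Plet1 at 0.50 (0.46 to 0.54) and Krt79 at 0.58. The rule limited the counts of Krt79, Defb6 and Cst6 of this list. It also limited Cd34 and Krt24 (outer bulge), Ly6a (basal), Krt1 and Krt10 (suprabasal), and Lgr5, Slc38a4 and Abi3bp (HG). Ratios of these genes, also where they count among the keratins, describe selected counts only. Outer bulge genes had a median of 0.25, with Lhx2, a stem cell transcription factor, at 1.03 (0.66 to 1.40). Basal epidermal genes had 5 of 6 below 0 and a median of -0.30, with Epgn, an EGF family ligand, at -1.07 and Thbs1 at -0.33. Suprabasal and sebaceous genes, 4 tested in each list, had medians of 0.58 and 0.88, all above 0. Transcription factors (27 genes) and keratins (12) had medians of 0.13 and 0.16, with Trp63 at -0.41 (-0.53 to -0.30) and Krt14 at -0.27 (-0.30 to -0.25). Basement membrane genes had a median of -0.15 over 21, with Itga2, a collagen receptor subunit, at -1.14 (-1.48 to -0.82). Dissociation stress genes had a median of 0.04 over 20, with 0 past 2-fold, the touch dome and Hedgehog list a median of 0.06 over 5, the HG list -0.23 over 3 and the inner bulge list 0.20 over 2.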

How the data were processed

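Back skin cells of 1 control and 1 miR-205-induced mouse were profiled by 10x Genomics single-cell RNA-seq. The authors deposited, for each library, a matrix of raw counts (UMIs per gene and barcode, whole numbers, not normalized). The matrix header names Cell Ranger 3.0.1, and the submitters' processing notes name mm10. The sources used here name no gene annotation. Cells were kept by the limits the study states, more than 200 and fewer than 5000 genes and under 10% mitochondrial UMIs. Cells of the group, the gene lists and the rule were chosen with earlier results of these data known.

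Counts were summed over the cells of a group in each library and scaled to the group total (CPM). Log2 ratios used a pseudocount of 0.5 UMIs on genes with at least 50 UMIs over both sums. With 1 library per group, a fixed limit of 2-fold stood in for a test. Against other keratinocytes the limit had to be met in both libraries. Comparison with cells passing the same exclusions was added after seeing the data, as was the split by Sostdc1 UMIs, with its 12 highest and 12 lowest genes. Named genes were the 4 rule genes, the 10 highest and 10 lowest induced over control ratios among genes with at least 100 UMIs (leaving out genes with at least 50% of a library's UMIs in 5 cells), the 15 highest and 10 lowest genes against other keratinocytes, and genes of the fixed lists of markers and pathways. Mitochondrial, ribosomal protein, haemoglobin, X-inactivation and Y-linked genes were not named. Ratio intervals are exact 95% Poisson, share intervals Clopper-Pearson and share differences Newcombe. Where cells were thinned, 5000 UMIs were drawn from each and shallower cells left out.

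Alternatives covered the mitochondrial limit, the marker sum, Sostdc1 in the rule, thinning, candidate doublets (cells in the top 5% of UMIs of their library, or with at least 2 UMIs over the fibroblast, melanocyte, T cell, antigen-presenting and endothelial lists together), scaling, minimum UMIs and the pseudocount. Genes were handled by identifier, since 35 symbols were repeated among 31053 features. RefSeq positions on GRCm38.p6 were matched by symbol for 75 of 77 genes, and 68 of 77 had a 3′ UTR in GENCODE M1 on NCBIM37. All 7 sites read equalled the genome of that build. The scripts ran in Python 3.11.15 with numpy 2.4.6, scipy 1.17.1, pandas 2.3.3 and matplotlib 3.10.9, and were tested on simulated data.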

Additional observations from a re-analysis of the deposited data

Results flagged for a closer look

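Actn1, an actin crosslinker, had an induced over control log2 ratio of 0.20 (0.03 to 0.36) in Sostdc1/Vsnl1 keratinocytes, while it was -0.28 (-0.41 to -0.14) in the hair germ gate and -0.18 (-0.34 to -0.01) in the upper follicle gate. Wnt3 was at -2.31 in the group and at 2.34 (0.40 to 5.81) in the hair germ gate, where it had 2 control and 11 induced UMIs. Trp53i11 was at -1.64 in the group and at 0.72 (0.33 to 1.13) in the bulge gate, from 73 and 189 UMIs. In each case the counting intervals lay on opposite sides of 0. With 1 library per group the differences between cell groups were not tested.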

How the results depend on the processing

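No paired analysis was possible because each group had 1 library. Of 291 values under alternatives, 245 stayed within their counting interval (counts of genes within 1.5 times), 45 moved and 1 changed sign. The difference in share became 1.04 points under 5% mitochondrial UMIs, where the control share was 8.66%. Shares were 5.24% and 4.25% with a marker sum of at least 5, 10.3% and 8.09% with Sostdc1 left out of the rule, 6.62% and 6.06% with the rule on thinned cells, and 9.42% and 7.46% without candidate doublets. The target median was -0.056 on thinned cells. Genes at least 2-fold higher than in other keratinocytes numbered 131 under 5% mitochondrial UMIs, 160 at a marker sum of at least 5, 140 on thinned cells, 134 and 36 at minimums of 20 and 200 UMIs, and 19 against the same exclusions. Lower genes numbered 219 on thinned cells, 215 at a minimum of 200 UMIs and 62 against the same exclusions. Induced over control, 229 genes were higher and 207 lower at a minimum of 20 UMIs, and 20 and 25 at 200. Genes lower in the induced library numbered 60 under 5% mitochondrial UMIs and 56 without cells carrying Mki67 or Top2a, a setting chosen after seeing the data. Other minimums change the number of genes compared, and for the other settings the cause was not tested. Of 200 values of the 20 genes named for induction, 180 stayed within their interval and 0 changed sign, while 6 genes (Avpr1a, Krt77, Tsc22d3, Txnip, Wnt3 and 2310007B03Rik) were under 2-fold in at least 1 alternative. Depth limited detection of genes near 3 UMIs per library in the group.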
